A study of Mus musculus with 8 samples.

Results

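The Hoxa genes are the homeobox genes of a single cluster on mouse chromosome 6, and 9 of them (Hoxa2, Hoxa3, Hoxa4, Hoxa5, Hoxa7, Hoxa9, Hoxa10, Hoxa11 and Hoxa13) were measured here among 18193 genes in all. They were taken by name as members of the cluster that had a probe set naming 1 gene only, and not by their values. Transcript levels came from LSK cells, the lineage-low, Sca1-positive and cKit-high fraction of bone marrow that holds blood stem cells and early progenitors, sorted from C57BL/6 mice. The 4 wild type arrays and the 4 arrays of mice heterozygous for Jak2V617F, a permanently active variant of the kinase Jak2, which relays cytokine signals, are labelled as 1 mouse each. The sources used here do not give the driver of the mutant allele or the age and sex of the mice. The comparison asked how the mutant kinase changed expression in stem and progenitor cells. Values are deposited log2 intensities, and each difference is mutant minus wild type, so a negative value means lower in the mutant.

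Hox genes encode transcription factors that bind DNA through a homeodomain, and they lie in clusters whose order on the chromosome follows their order of use along the embryo. In blood, the central genes of the Hoxa cluster are active in stem and progenitor cells and are switched down as cells mature. Hoxa9, which works together with the TALE homeodomain proteins Meis1 and Pbx, supports stem cell self-renewal, and the Mll (Kmt2a) complex keeps the cluster active.

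The arrays were close in quality measures, with a small split of the medians by genotype. Medians over all probe sets ran from 7.12 to 7.15 (log2) in wild type arrays. Mutant arrays 1, 3 and 4 read 7.09, 7.06 and 7.08, below all of these, and mutant array 2 read 7.13. Arrays correlated pairwise between 0.9909 and 0.9957 across probe sets. Kit, the receptor used in the sort, averaged 12.65 in wild type and 12.67 in mutant arrays, and all 18 measured genes of an LSK and stem cell marker list lay above the range of absent transcripts described below. Jak2 differed by -0.20 (limma adjusted p = 0.294), and whether its probe set reads the mutant allele was not tested. Xist, the transcript of the inactive X chromosome, was high in wild type arrays 1 and 2 and in mutant array 3 (from 13.21 to 13.46) and read 6.54 or less in the other 5, so the split was unequal between the genotypes. In these bulk samples fewer cells of a type and less RNA per cell cannot be told apart.

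No Hoxa gene passed the test. Over all genes limma called 11 lower, or 0.0605%, and 19 higher, or 0.104%, at an adjusted p under 0.05, and 0 of the 9 Hoxa genes were among them. At an unadjusted p under 0.05 there were 3 Hoxa genes on the lower side (Hoxa10, Hoxa9 and Hoxa3), where the background was 5.23% of all genes, and 0 on the higher side, where it was 11.9%. This count depends on the probe sets chosen, that of Hoxa3 being 1427433_s_at. With _s_at, _x_at and _a_at probe sets left out, the unadjusted limma p was 0.420 for Hoxa10, 0.310 for Hoxa3 and 0.0118 for Hoxa9. With the probe sets of each gene averaged it was 0.0601, 0.126 and 0.00969, so Hoxa9 alone stayed under 0.05 in both. For Hoxa10 both settings brought in 1446408_at, which lay within the range of absent transcripts described below. They are therefore no check on its chosen probe set. The Hoxa3 mean also took in probe sets within that range. With each array left out in turn the Hoxa10 difference stayed between -0.53 and -0.41. Of the 9 genes 6 had a difference below 0, against 37.4% of all genes. Their median difference was -0.21, against 0.05 over all genes. The median compares these 9 genes with the array at large as a description, since the cluster was chosen with earlier results of these data known.

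Intensity cannot be compared between probe sets, so whether a gene was expressed was judged against transcripts of liver, pancreas, heart, eye, brain, testis and other tissues that blood cells do not make. Of 30 such genes 27 were measured, with means from 3.75 to 8.69, a median of 5.56 and a 90th percentile of 7.43. By that percentile 5 Hoxa genes (Hoxa3, Hoxa5, Hoxa7, Hoxa9 and Hoxa10) stood above the range of absent transcripts and 4 (Hoxa2, Hoxa4, Hoxa11 and Hoxa13) lay within it. A gene within that range may be absent or low, and its difference may be a difference in background. Among the 5 genes above it, 4 had a difference below 0. The share below 0 among all genes above that percentile was not computed.

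**Figure D1:**
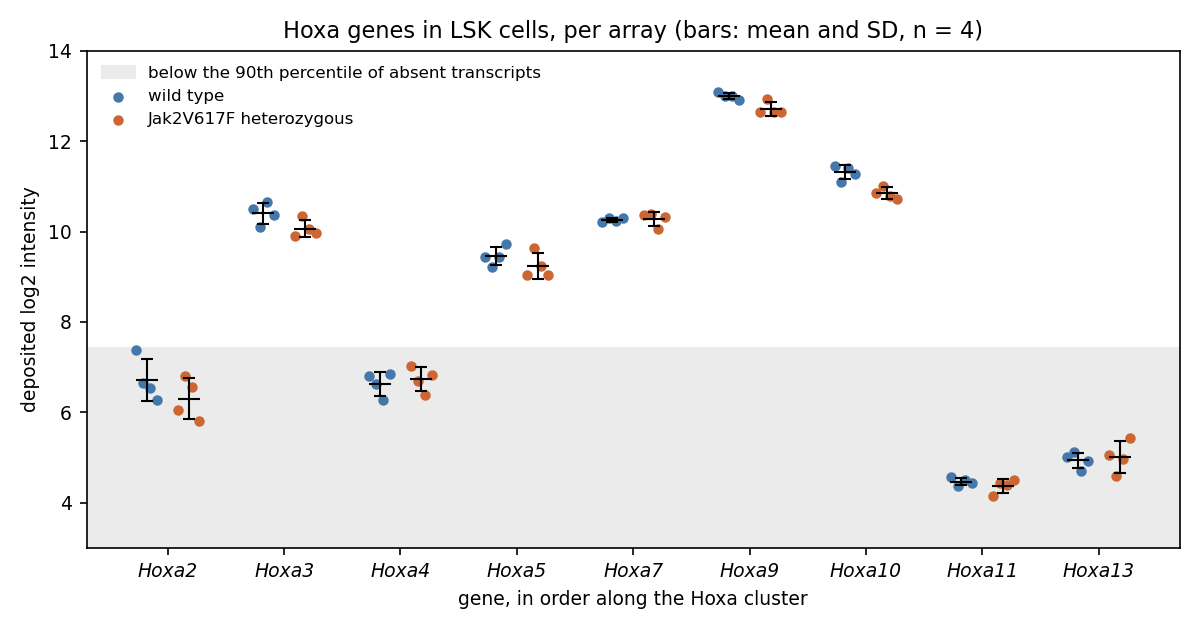
Deposited log2 intensity (y axis) of the 9 Hoxa genes in cluster order (x axis), each point 1 array, with mean and SD (n = 4) as bars, wild type left and mutant right, and the shaded area below the 90th percentile of absent transcripts (7.43). Hoxa3, Hoxa5, Hoxa7, Hoxa9 and Hoxa10 lie above the shading, and the genotypes are apart without overlap for Hoxa10 alone of the 9. Over all genes 3.33% are apart on the lower side and 6.82% on the higher side.

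Hoxa10, a gene towards the 5′ end of the cluster whose product restrains late myeloid genes and promotes progenitor growth, had the largest difference of the 9. It read 11.46, 11.11, 11.40 and 11.27 in the wild type arrays and 10.86, 11.02, 10.78 and 10.72 in the mutant arrays. Every mutant array lay below every wild type array, which was so for 3.33% of all genes (the opposite held for 6.82%), although the highest mutant array and the lowest wild type array stood close together. The means were 11.31 ± 0.16 and 10.84 ± 0.13 (SD, n = 4 each), a difference of -0.46 ± 0.10 (SE) and 1.38-fold lower in linear intensity. The 95% limma interval ran from -0.69 to -0.24, and the limma adjusted p was 0.104, above the threshold of 0.05. This value rests on a probe set that reads several transcripts of the gene (1431475_a_at). With such probe sets left out Hoxa10 was represented by 1446408_at, which averaged 4.99 in wild type arrays, within the range of absent transcripts, and differed by -0.23 (limma adjusted p = 0.676).

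Hoxa9, the main self-renewal factor of the cluster, had the next smallest p. It read 13.10, 12.99, 12.99 and 12.92 in the wild type arrays and 12.64, 12.94, 12.64 and 12.64 in the mutant arrays. Mutant arrays 1, 3 and 4 lay below all wild type arrays and close to each other, and mutant array 2 lay inside the wild type range. The means were 12.9985 ± 0.073 and 12.71 ± 0.15 (SD, n = 4 each), a difference of -0.28 ± 0.088 (SE) and 1.22-fold lower in linear intensity, with a 95% interval from -0.48 to -0.08 and a limma adjusted p of 0.194. Without mutant array 2 the difference was -0.36 (limma adjusted p = 0.114). Over 16 alternatives the adjusted p of Hoxa9 ranged from 0.114 to 0.373 in limma. A further Hoxa9 probe set, 1421579_at, read 10.75, 10.46, 10.63 and 10.74 in wild type and 10.21, 10.59, 10.06 and 10.34 in mutant arrays, a difference of -0.34 ± 0.12 (SE; limma adjusted p over all probe sets = 0.216). Again mutant array 2 was the highest of the mutant arrays, and the change of this probe set did not differ detectably from that of the first (-0.06 apart, two-sided exact permutation p = 0.486).

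Hoxa11 and Hoxa13, the most 5′ genes of the cluster, pattern the limbs and the lower body and are not genes of blood stem cells. Hoxa11 averaged 4.47 ± 0.087 in wild type and 4.37 ± 0.16 in mutant arrays, and Hoxa13 4.94 ± 0.17 and 5.01 ± 0.35 (SD, n = 4 each). Both lay within the range of absent transcripts with overlapping arrays, with differences of -0.10 and 0.07 (limma adjusted p = 0.587 and 0.835). The Hoxa11 value was -0.023 when mutant array 1 was dropped and -0.066 when wild type array 1 was, and that of Hoxa13 turned to -0.064 without mutant array 4.

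Hoxa7, a central gene active in early progenitors, had a difference near 0. It read 10.21, 10.29, 10.24 and 10.31 in the wild type arrays and 10.37, 10.38, 10.06 and 10.32 in the mutant arrays. Here 3 mutant arrays lay above all wild type arrays and mutant array 3 lay below them. The means were 10.26 ± 0.044 and 10.28 ± 0.15 (SD, n = 4 each), a difference of 0.02 ± 0.086 (SE) with a 95% interval from -0.17 to 0.21 (limma adjusted p = 0.916). It has 1 probe set, so no other could be compared.

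Hoxa5, a central gene that acts in early myeloid and erythroid fate, read 9.43, 9.22, 9.44 and 9.72 in the wild type arrays and 9.04, 9.65, 9.24 and 9.04 in the mutant arrays. Mutant arrays 1 and 4 lay below all wild type arrays and mutant array 2 lay near the top of them, so the groups overlapped. The difference was -0.21 ± 0.15 (SE), with a 95% interval from -0.56 to 0.14 (limma adjusted p = 0.487). It was -0.35 when mutant array 2 was dropped and -0.12 when wild type array 4 was dropped. A further probe set, 1443803_x_at, differed by -0.25 (limma adjusted p over all probe sets = 0.427), and mutant array 2 was again the highest mutant array.

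Hoxa3, an anterior gene known for its part in the thymus and the neck, read 10.49, 10.10, 10.65 and 10.38 in the wild type arrays and 9.90, 10.34, 10.06 and 9.96 in the mutant arrays. Mutant arrays 1, 3 and 4 lay below all wild type arrays, although the lowest wild type array and mutant array 3 stood close together. The means were 10.40 ± 0.24 and 10.07 ± 0.19 (SD, n = 4 each), a difference of -0.34 ± 0.14 (SE), with a 95% interval from -0.65 to -0.03 and a limma adjusted p of 0.258. Its other probe sets differed by -0.18 (1452421_at, above the range of absent transcripts), -0.07 and 0.02 (both within it), and the mean of all 4 gave -0.14 (limma adjusted p = 0.403). In RefSeq (assembly GRCm38.p6) the Hoxa3 gene spans Hoxa4, Hoxa5 and Hoxa6 and the noncoding genes Hoxaas2 and Hoxaas3, and strand was not given for the probe sets, so signal of these overlapping genes may be shared.

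Hoxa2 and Hoxa4, anterior genes used mainly in the hindbrain and neck, lay within the range of absent transcripts. Hoxa2 read between 6.28 and 7.38 in wild type and between 5.80 and 6.81 in mutant arrays, a difference of -0.41 ± 0.27 (SE) whose 95% interval reached from -1.03 to 0.21 (limma adjusted p = 0.455). Without wild type array 1 it was -0.18, and without mutant array 4 it was -0.24. Hoxa4 read between 6.27 and 6.84 in wild type and between 6.39 and 7.02 in mutant arrays, a difference of 0.10 ± 0.16 (SE; limma adjusted p = 0.769). The arrays of both genes overlapped. The further Hoxa4 probe set was dimmer still and differed by -0.02.

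**Figure D2:**
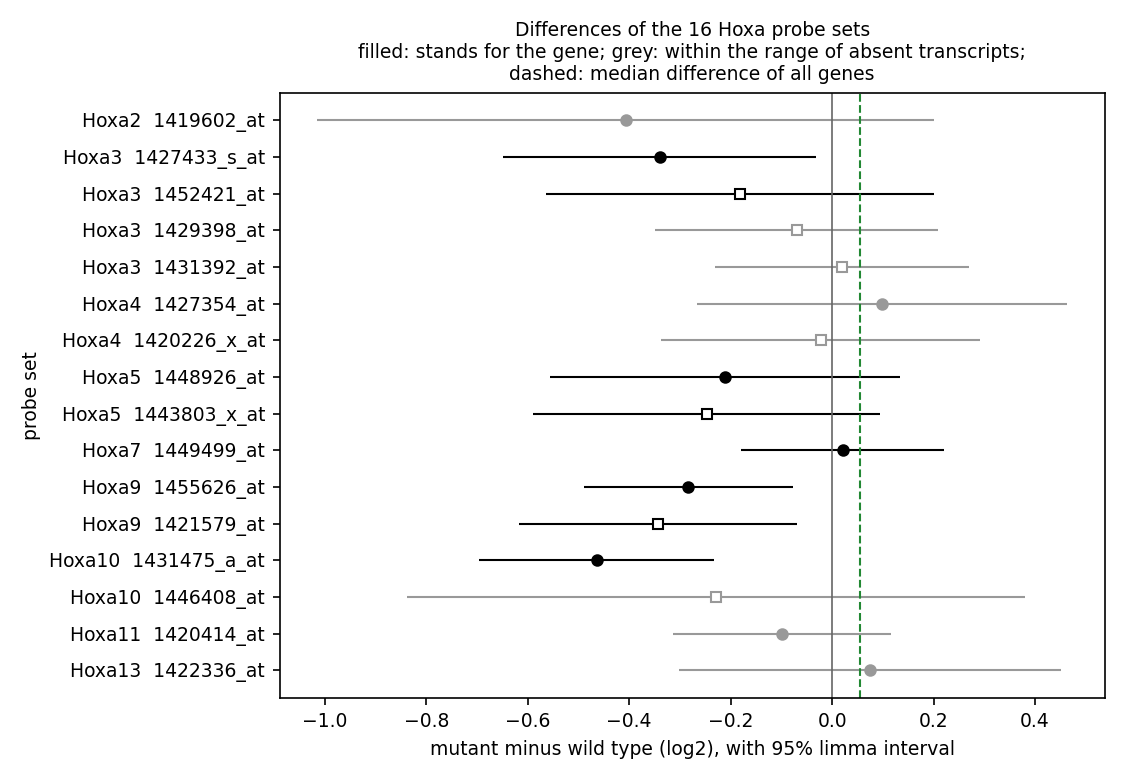
Difference between mutant and wild type (x axis, log2) with its 95% limma interval for the 16 Hoxa probe sets (y axis), where filled circles stand for the gene, open squares are its other probe sets, grey marks probe sets within the range of absent transcripts and the dashed line is the median of all genes (0.05). Of the 8 black probe sets 7 lie below 0 and the Hoxa7 probe set lies at 0.02. The dashed line is taken over genes and not over probe sets.

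Across the 9 genes there were 16 probe sets, 8 of them above the range of absent transcripts, and 7 of those 8 had a difference below 0. The share of all probe sets below 0 was not computed, and the 37.4% of genes does not stand in for it. Subtracting array medians moved Hoxa10 from -0.46 to -0.44 in the probe set fit, but to -0.48 in the gene fit. The array medians thus shifted in opposite directions over probe sets and over genes. None of the 16 was called, where limma over all probe sets called 0.0773% lower and 0.0944% higher, and 4 had an unadjusted p under 0.05 on the lower side, where the background was 6.99%. These were the chosen probe sets of Hoxa10, Hoxa9 and Hoxa3 and the further one of Hoxa9. For Hoxa3, Hoxa5 and Hoxa9, where 2 probe sets lay above the range, their changes were compared, and none of the 3 pairs differed detectably (smallest two-sided exact permutation p = 0.2, adjusted over 3 pairs 0.6).

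Whether the genes above the range differed in their change from one another was tested for all 10 pairs. The log2 difference of Hoxa10 lay below that of Hoxa7 (-0.49, two-sided exact permutation p = 0.0286, adjusted over 10 pairs 0.143), and so did that of Hoxa9 (-0.30, exact p = 0.0286, adjusted 0.143). For both pairs the per-array differences of the 2 genes did not overlap between genotypes, and 0.0286 is the smallest p that 4 arrays against 4 allow. The other 8 pairs had exact permutation p from 0.0857 to 0.686. After adjustment no pair passed. With 10 pairs at least 6 would have had to reach the smallest p for any to pass, and only the pairs of Hoxa10 and of Hoxa9 with Hoxa7 did. So few arrays make this bar hard to reach, so the lack of a passing pair does not show equal changes.

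Mutant array 2 was the highest of the mutant arrays for all 5 genes above the range, by intensities of 10.34 for Hoxa3, 9.65 for Hoxa5, 10.38 for Hoxa7, 12.94 for Hoxa9 and 11.02 for Hoxa10. Set against the wild type means, that array stood at -0.07 for Hoxa3, 0.19 for Hoxa5, 0.12 for Hoxa7, -0.06 for Hoxa9 and -0.29 for Hoxa10. The other mutant arrays lay between -0.34 and -0.51 for Hoxa3, between -0.21 and -0.41 for Hoxa5, at -0.36 for Hoxa9 and between -0.45 and -0.59 for Hoxa10. For Hoxa7 mutant arrays 1, 3 and 4 stood at 0.11, -0.20 and 0.06, so mutant array 2 barely exceeded mutant array 1 there. The array median over all probe sets was also highest in mutant array 2 among the mutant arrays (7.13). Whether the 2 are linked was not tested. Once the genotype means were removed, Hoxa3 and Hoxa10 varied together most closely over the 8 arrays (Pearson r = 0.85), followed by Hoxa3 with Hoxa5 (0.70) and Hoxa9 with Hoxa10 (0.69). The other pairs among Hoxa3, Hoxa5, Hoxa9 and Hoxa10 lay between 0.57 and 0.61, and the values of Hoxa7 with these 4 genes between -0.08 and 0.27. These are descriptions, and the genes share arrays and amplification.

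**Figure D3:**
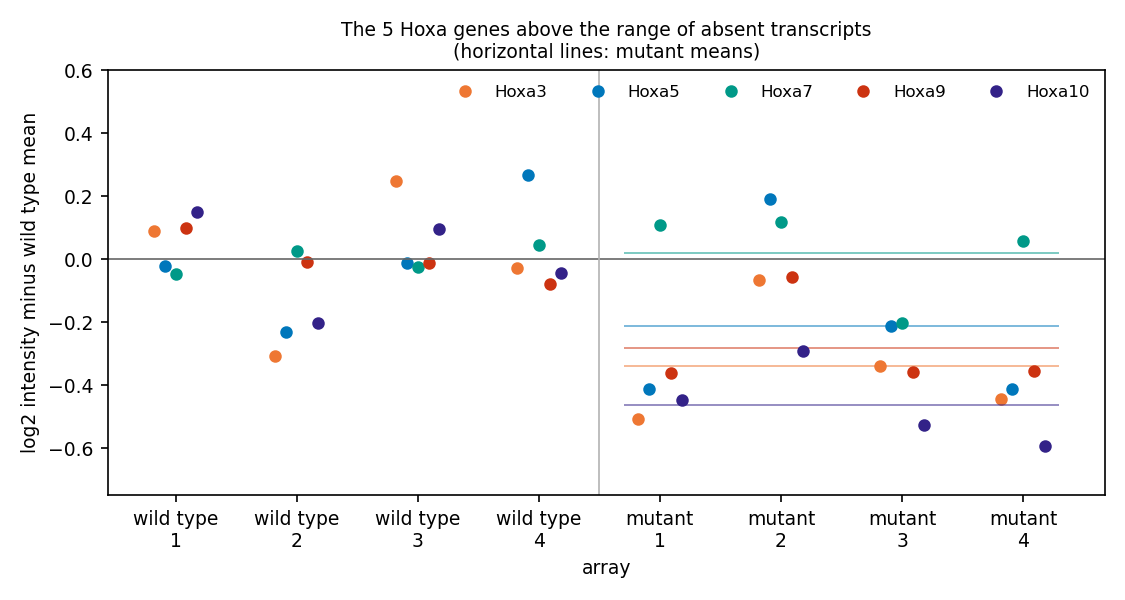
Log2 intensity minus the wild type mean (y axis) of the 5 Hoxa genes above the range of absent transcripts in each array (x axis), with horizontal lines at the mutant means. Hoxa3, Hoxa9 and Hoxa10 sit below 0 in all 4 mutant arrays and nearest to it in mutant array 2, while Hoxa7 is above 0 in mutant arrays 1, 2 and 4 and at -0.20 in mutant array 3.

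Lists of markers of other cell types gave the following values beside these, with 37.4% of all genes below 0 and the rest above it or at it. The mean log2 intensity of 18 measured erythroid genes lay between 8.82 and 9.55 in wild type and between 9.33 and 10.22 in mutant arrays, with 16 of 18 genes above 0 and a median difference of 0.52. For 20 macrophage and dendritic cell genes it lay between 8.03 and 8.45 against 8.44 and 8.94 (19 of 20 above 0), and for 18 granulocyte and monocyte genes between 11.86 and 12.43 against 12.30 and 12.58 (14 of 18). For 13 megakaryocyte and platelet genes it lay between 8.92 and 9.45 against 9.20 and 9.69 (12 of 13), and for 9 mast cell and basophil genes between 7.32 and 8.42 against 7.84 and 8.40 (8 of 9). The list means of the genotypes overlapped in each of these 5 lists. T and NK cell genes had 9 of 12 above 0, B cell genes 6 of 14 and endothelial and stromal genes 9 of 15, while LSK and stem cell genes had 12 of 18 below 0 (median -0.07). No gene of these lists was called by limma, and the smallest adjusted p among them was 0.0652, for Tfrc, the transferrin receptor gene (0.75), Cd163, a macrophage scavenger receptor gene (0.65), and Emcn, an endothelial sialomucin gene (-0.84). Among mutant arrays, mutant array 2 had the highest mean of the LSK and stem cell list (12.13), the erythroid list (10.22) and the megakaryocyte list (9.69). It ranked 2 of 4 for the granulocyte, macrophage and B cell lists and 3 of 4 for the T and NK cell, mast cell and endothelial lists. The part of these cell types in the Hoxa values was not tested.

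The starts of Hoxa10, Hoxa9 and Hoxa3, the genes with the smallest p, are shown beside that of Hoxa7, which lies next to Hoxa9 and had a difference near 0. Each line gives the 250 bases before the start in RefSeq, assembly GRCm38.p6, all on the minus strand, 5′ to 3′. They lie at chr6:52240855-52241104 and chr6:52234940-52235189 for the outer and inner start of Hoxa10, chr6:52227371-52227620 for Hoxa9, chr6:52218574-52218823 for Hoxa7 and chr6:52213068-52213317 for Hoxa3. The Hoxa3 window, the only one given for that gene, is that of a far start between the windows of Hoxa5 (chr6:52204588-52204837) and Hoxa7. Whether the Hoxa3 probe sets read transcripts from this start was not tested. Capitals mark a match to any of the 3 motifs searched on both strands, the Stat motif TTCNNNGAA, the Meis motif TGACAG and the joint Hox and Pbx motif TGATTNAT.
Hoxa10 outer start: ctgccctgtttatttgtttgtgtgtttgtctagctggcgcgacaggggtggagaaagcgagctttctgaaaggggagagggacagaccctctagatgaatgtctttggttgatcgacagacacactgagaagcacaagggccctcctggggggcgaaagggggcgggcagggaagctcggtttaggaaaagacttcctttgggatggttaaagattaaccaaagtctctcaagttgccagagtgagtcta
Hoxa10 inner start: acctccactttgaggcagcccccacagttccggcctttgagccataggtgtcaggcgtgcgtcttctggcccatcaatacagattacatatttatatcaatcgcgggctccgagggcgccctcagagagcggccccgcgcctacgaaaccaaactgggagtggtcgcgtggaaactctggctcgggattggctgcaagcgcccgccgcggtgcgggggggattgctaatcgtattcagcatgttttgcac
Hoxa9: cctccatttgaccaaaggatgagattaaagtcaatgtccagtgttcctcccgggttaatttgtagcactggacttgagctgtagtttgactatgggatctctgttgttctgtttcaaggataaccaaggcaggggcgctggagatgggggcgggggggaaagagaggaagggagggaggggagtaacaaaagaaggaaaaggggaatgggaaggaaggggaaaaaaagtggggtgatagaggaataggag
Hoxa7: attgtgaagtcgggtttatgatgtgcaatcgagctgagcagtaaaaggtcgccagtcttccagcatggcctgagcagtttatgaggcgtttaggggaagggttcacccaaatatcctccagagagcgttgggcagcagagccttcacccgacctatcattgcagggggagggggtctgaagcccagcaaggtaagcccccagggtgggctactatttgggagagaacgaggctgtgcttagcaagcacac
Hoxa3: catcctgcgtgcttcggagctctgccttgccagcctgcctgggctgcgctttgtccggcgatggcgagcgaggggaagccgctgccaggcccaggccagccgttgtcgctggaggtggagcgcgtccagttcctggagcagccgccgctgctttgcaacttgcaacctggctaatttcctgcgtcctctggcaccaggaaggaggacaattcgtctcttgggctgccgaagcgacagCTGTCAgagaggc

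The Meis motif had 1 match, in the Hoxa3 window on the opposite strand, from 13 to 8 bases before the start, and no other match lay in these 5 windows. RefSeq gave windows for 8 of the 9 genes, Hoxa4 having none. Among the windows not shown, that of Hoxa2 held a Meis match and a match to the joint Hox and Pbx motif, and those of Hoxa5, Hoxa11 and Hoxa13 held none. Over all 32851 windows of this length 7.02% held the Stat motif, 15.9% the Meis motif and 2.83% the joint motif. The windows differed in base content, with 7 CpG pairs at the outer and 20 at the inner start of Hoxa10, 3 at Hoxa9, 7 at Hoxa7 and 18 at Hoxa3. These are counts of letters in short windows and say nothing of binding.

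The Hoxb cluster, the other Hox cluster known to be active in blood stem cells, gave values that spread to both sides. Of 9 measured Hoxb genes 5 had a difference below 0 and the median was -0.06. Hoxb3, Hoxb4 and Hoxb5 lay above the range of absent transcripts and differed by -0.21, 0.01 and -0.06. Hoxb6 had the smallest p of them, at 6.09, 5.75, 5.93 and 6.15 in wild type and 5.16, 5.82, 5.14 and 5.24 in mutant arrays (-0.64, limma adjusted p = 0.137), all within that range. Hoxb2, Hoxb7 and Hoxb9, also within it, differed by -0.50, 0.30 and -0.29 (limma adjusted p from 0.274 to 0.356). The Hoxb genes did not share one order of the mutant arrays. Above the range, mutant array 2 was the highest mutant array for Hoxb4 (10.19) and close to the highest for Hoxb3 (10.56 against 10.57 in mutant array 3). For Hoxb5 mutant array 3 was the highest (8.72) and mutant array 2 read 8.29. Within the range, mutant array 2 was the highest for Hoxb6 (5.82) and the lowest for Hoxb2 (5.90). The 7 Hoxc and 8 Hoxd genes measured all lay within the range, with medians of 0.02 and 0.12. No gene of the 3 clusters was called, and whether the Hoxa and Hoxb clusters differ was not tested.

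Other genes that flank the Hoxa cluster or lie within it gave values on both sides of 0. Of 10 measured genes of this list 5 had a difference below 0, with a median of 0.01 and 0 called. The smallest p belonged to the antisense gene Hoxa11os (0.35, limma adjusted p = 0.214), followed by Nfe2l3 (-0.49, 0.337), both within the range of absent transcripts. Jazf1, a zinc finger gene above that range, differed by -0.40 (limma adjusted p = 0.354), and Tax1bp1 by 0.08. Jazf1 averaged 7.57, just above the 90th percentile of absent transcripts (7.43). Hoxa11os overlaps Hoxa11 in RefSeq, so their signals may be shared.

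Of the TALE cofactors, which bind DNA beside Hox proteins, 4 of 8 measured genes had a difference below 0 and none was called (median -0.03). The smallest p belonged to Pknox2 (0.30, limma adjusted p = 0.246, within the range of absent transcripts), then Meis3 (0.21), Meis2 (-0.34, within that range) and Pknox1 (-0.18). Meis1, the partner of Hoxa9, was read by 3 probe sets. The probe set with the highest mean, 1450992_a_at, read 10.88, 10.99, 10.83 and 10.73 in wild type and 10.82, 10.80, 10.68 and 10.72 in mutant arrays, a difference of -0.10 (limma adjusted p = 0.516). The other 2 did not overlap between genotypes, with every mutant array lower. Over all genes 3.33% were so on the lower side and 6.82% on the higher side. The share over all probe sets was not computed. Probe set 1443260_at read 10.54, 10.25, 10.41 and 10.24 against 9.87, 10.15, 9.51 and 9.84, a difference of -0.52 (limma adjusted p over all probe sets = 0.136), and 1459423_at read 8.32, 8.03, 8.52 and 8.06 against 7.75, 7.82, 7.41 and 7.43, a difference of -0.63 (limma adjusted p = 0.103). No pair of the 3 probe sets passed after adjustment (exact permutation test, adjusted p from 0.0857 to 0.343 over 3 pairs). The changes of 1450992_a_at and 1459423_at differed at the smallest exact p possible (0.0286). With 3 pairs at least 2 must reach that p for any to pass, so this does not show equal changes. The Meis1 probe sets were singled out after their values were seen, so this is a description.

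A further list held genes of the Mll complex, of the elongation factors it works with and of other chromatin factors such as Kat6a, which keep Hoxa genes active. Of these 12 of 18 had a difference below 0, with a median of -0.04 and 0 called. At an unadjusted limma p under 0.05 there were 2 of 18 lower, Kmt2a and Kat6a, against 5.23% of all genes, and 0 higher, against 11.9%. Kmt2a, the histone methyltransferase Mll itself, read 12.89, 12.71, 13.06 and 13.01 in wild type and 12.42, 12.64, 12.74 and 12.55 in mutant arrays, with mutant array 3 above the lowest wild type array (-0.33, limma adjusted p = 0.192). Its further probe set differed by -0.31. Kat6a, the histone acetyltransferase Moz, read 12.57, 12.66, 12.70 and 12.60 against 12.37, 12.41, 12.52 and 12.18, with no overlap (-0.26, limma adjusted p = 0.197). Psip1 and Kmt2d differed by -0.16 and -0.12.

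Polycomb genes, whose products silence Hox clusters, had 8 of 17 below 0, a median of 0.00075 and 0 called. Phc3 differed by -0.17 (limma adjusted p = 0.258), Jarid2 by 0.18, the methyltransferase gene Ezh1 by -0.17 and Phc1 by -0.12. Of 11 upstream regulators 5 lay below 0, none was called, and Rara, a retinoic acid receptor gene, differed by 0.34 (limma adjusted p = 0.269). Cdx2 (0.35, limma adjusted p = 0.226) and Cdx1 (0.35), activators of Hox genes in the embryo, lay within the range of absent transcripts, and Runx1 differed by 0.15.

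Genes reported as targets of Hoxa9 and Meis1 had 11 of 16 below 0, with a median of -0.04 and 0 called. Id2, an inhibitor of helix-loop-helix factors, read 9.23, 9.17, 9.68 and 9.44 in wild type and 9.74, 10.34, 10.31 and 10.03 in mutant arrays, every mutant array above every wild type array (0.73, limma adjusted p = 0.105). Cd34, a progenitor surface marker gene, had every mutant array below every wild type array at a small difference (-0.12, limma adjusted p = 0.350). Igf1r, a growth factor receptor gene, differed by -0.21 and Erg by 0.16, with overlap. Of 7 measured genes reported as Hoxa10 targets 4 lay above 0 and none was called (median 0.14). Cybb, the phagocyte oxidase gene that Hoxa10 is known to repress, read 7.95, 7.94, 8.58 and 7.85 in wild type and 8.67, 8.91, 8.85 and 8.99 in mutant arrays, also without overlap (0.77, limma adjusted p = 0.0929). It is also a gene of granulocytes and macrophages, whose list values stand above, and their part in it was not tested. Gata1, also of erythroid cells, differed by 0.50 (limma adjusted p = 0.271), Dusp4 by -0.57 (0.246) and Cdkn1a by 0.21.

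**Figure D4:**
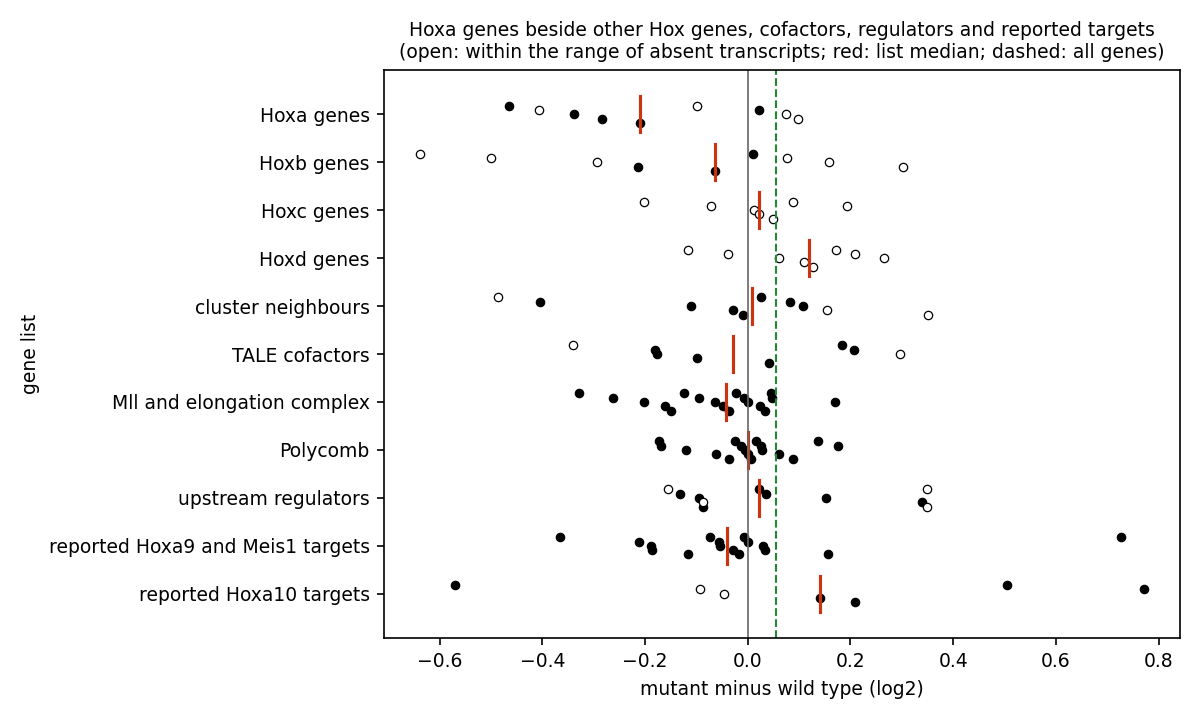
Difference between mutant and wild type (x axis, log2) for each measured gene (points) of the Hoxa cluster and 10 other lists (y axis), open where the gene lies within the range of absent transcripts, with each list median in red and the median of all genes dashed. The Hoxa median stands at -0.21, and the medians of the other lists lie between -0.06 and 0.14.

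Genes whose array-to-array variation was most like that of 2 Hoxa genes were found by the Pearson correlation of deviations from the genotype means over 8 arrays, among 9095 genes brighter than the median gene. For Hoxa9 they were Dhrs11 (0.97), Srebf2 (0.96), Hlf (0.96) and Patj (0.96), and for Hoxa10 they were Atg7 (0.98), C030034I22Rik (0.97), Dtwd2 (0.95) and Cd1d1 (0.94). Hlf encodes a transcription factor of stem cells, and Srebf2 the main activator of cholesterol synthesis. Their genotype differences ranged from -0.40 (Atg7) to 0.17 (Dhrs11), and none was called. Being the top of 9095 values over 8 arrays, such correlations are high by selection and only describe these arrays.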

How the data were processed

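RNA of 8 sorted LSK samples was amplified with the NuGEN Ovation system and hybridised to Affymetrix mouse expression arrays, per the labels' protocols. The deposited log2 intensities were made by the authors with RMA (background correction, quantile normalisation between arrays, probe set summary) in affy under R 2.11.0, per the submitters' processing notes. That they are log2 follows from their range. The sources used here give no chip definition or genome build. Quantile normalisation hides a shift shared by most transcripts.

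Of 45101 probe sets, 64 controls, 932 with several gene symbols and 9160 without one were left out. Names came from the platform annotation, and RefSeq (GRCm38.p6) matched 34741 of the other 34945. Of several probe sets for a gene, the one brightest on average across the 8 arrays was kept, which left 18193 genes.

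Genotypes came from the labels, 4 arrays each. Limma 3.58.1 in R 4.3.3 (lmFit, eBayes, no covariate, two-sided) was fitted over all genes with Benjamini-Hochberg adjustment at 0.05, and again over all probe sets. For pairs of genes or probe sets, an exact permutation test (two-sided, scipy 1.17.1) was used. The number of arrays limits the precision. Fits were tested on simulated data. The Hoxa genes, all gene lists and the tests were chosen with earlier results of these data known. By the naming rule the text names the Hoxa genes, up to 4 genes with the smallest p from each list, and the 4 genes most like Hoxa9 and Hoxa10 (few from the marker lists, none from the Hoxc and Hoxd lists). Hoxb3 to Hoxb5 were named for their level, and Kit, Jak2, Xist and the Meis1 probe sets stand outside the rule.

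The replicate numbers in the labels did not pair the arrays.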

Additional observations from a re-analysis of the deposited data

Results flagged for a closer look

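In Hoxa9 (probe set 1455626_at), mutant array 2 read 12.94 and the other 3 mutant arrays all read 12.64, a gap of 0.98 of the whole range, above Dixon's critical ratio for 4 arrays at the 95% level. In the dim Hoxa10 probe set 1446408_at, wild type array 3 read 5.90 and the other wild type arrays lay between 4.62 and 4.81, a gap of 0.85 of the range. These were 2 of 32 groups examined, and chance flags about 1 in 20. No cause was tested.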

How the results depend on the processing

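No Hoxa gene was called under any alternative run, and the counts of Hoxa genes called stayed at 0. Hoxa2, Hoxa3, Hoxa5, Hoxa9, Hoxa10 and Hoxa11 kept their sign in all alternatives that gave a value, though leaving out 1 array moved Hoxa2 to between -0.57 and -0.18, Hoxa5 to between -0.35 and -0.12 and Hoxa11 to between -0.14 and -0.023. Values of Hoxa10 ranged from -0.53 to -0.23 (limma adjusted p from 0.0717 to 0.676) and of Hoxa3 from -0.44 to -0.14 (0.184 to 0.589). The -0.23 of Hoxa10 is that of its dim probe set 1446408_at. Near 0, signs turned for Hoxa7 with the level of Xist as a covariate (-0.0071). With each array left out in turn values ran from -0.012 to 0.096 for Hoxa7, from -0.023 to 0.21 for Hoxa4 and from -0.064 to 0.22 for Hoxa13, each of which has the same range in the probe set fit. Dim probe sets turned too, Hoxa4 1420226_x_at to 0.0064 with median centring. With an array left out that probe set ran from -0.15 to 0.087, Hoxa10 1446408_at from -0.35 to 0.074 and Hoxa3 1431392_at from -0.053 to 0.084. With the dim genes left out Hoxa2, Hoxa4, Hoxa11 and Hoxa13 had no value.

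Same-numbered arrays did not deviate together (correlations -0.02, -0.22, -0.06 and 0.10 over genes). With the replicate number as a block, Hoxa10 stayed at -0.46 (limma adjusted p = 0.213) and 4 genes were called lower and 4 higher. Over all genes, 11 lower and 19 higher calls became 19 lower with median centring, 4 and 8 with dim genes left out, 38 higher with probe sets averaged, 28 and 47 with a trended robust prior, 24 and 39 with the Xist covariate, 2 and 6 at a threshold of 0.01 and 64 and 135 at 0.1. Leaving out each array gave 3 to 12 lower and 8 to 28 higher calls, and the lower count fell under 11 by more than 1.5 times when wild type array 2 (5) or 3 (4) or mutant array 1 (5), 2 (7) or 4 (3) was dropped. The higher count did so for wild type array 2 (8) or 3 (12) and mutant array 2 (9) or 4 (11).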
